A study of Mus musculus with 7 samples.

Results

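The mitochondrial ribosomal proteins were taken as every gene whose symbol is Mrpl or Mrps followed by a digit. The array held 77 such genes through 113 probes, and 75 of them could be tested among 16939 items, of which 11824 were named genes. The study compared prostate RNA of C57Bl/6 mice on 2-colour arrays. The 3 PB-NICD samples carried the ROSA(N1IC) allele together with ARR2PB-Cre, a recombinase driven by a prostate epithelial promoter, which switches on the Notch1 intracellular domain in those cells; their labels name prostatic intraepithelial neoplasia, an early lesion. The 4 controls were ROSA(N1IC) mice without that recombinase in their label, so both groups share the allele, and the labels call them wild-type for the domain. Each prostate RNA was hybridised against one universal mouse reference RNA, and ages and the number of animals behind each sample are not given in the labels. The p-values therefore measure the spread between these samples, which may be partly technical.

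Mitochondrial ribosomes translate the few messenger RNAs of the mitochondrial genome, which encode core subunits of the respiratory chain and ATP synthase. All their proteins are encoded in the nucleus and imported. The large subunit (mainly Mrpl genes) holds the centre that joins amino acids, and the small subunit (mainly Mrps genes) reads the message. Some members have counterparts in bacterial ribosomes and others are specific to mitochondria. Names can mislead here: the products of Mrps30 and Mrps18a sit in the large subunit, and that of Mrps36 belongs to the 2-oxoglutarate dehydrogenase complex, not to the ribosome.

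The promoters of 4 members are shown because Mrpl53 and Mrpl20 had the lowest changes, Mrpl18 fell and holds a motif, and Mrps18a was the member with the highest change. Each sequence is the 250 bases before the annotated start, 5′ to 3′ on the gene's strand, from RefSeq on the build GRCm38.p6, with the searched ETS motif in capitals where it occurs.

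Mrpl53 (chr6:83108858-83109107, plus strand): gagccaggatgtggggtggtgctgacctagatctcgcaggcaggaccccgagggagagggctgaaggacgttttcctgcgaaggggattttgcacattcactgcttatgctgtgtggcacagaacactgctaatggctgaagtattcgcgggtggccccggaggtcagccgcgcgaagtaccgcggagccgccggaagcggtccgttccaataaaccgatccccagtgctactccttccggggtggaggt

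Mrpl20 (chr4:155802628-155802877, plus strand): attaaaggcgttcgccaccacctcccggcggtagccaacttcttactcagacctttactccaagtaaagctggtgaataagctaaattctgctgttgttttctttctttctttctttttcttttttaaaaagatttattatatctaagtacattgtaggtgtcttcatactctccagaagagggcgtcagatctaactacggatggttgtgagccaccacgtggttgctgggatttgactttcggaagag

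Mrpl18 (chr17:12916092-12916341, minus strand): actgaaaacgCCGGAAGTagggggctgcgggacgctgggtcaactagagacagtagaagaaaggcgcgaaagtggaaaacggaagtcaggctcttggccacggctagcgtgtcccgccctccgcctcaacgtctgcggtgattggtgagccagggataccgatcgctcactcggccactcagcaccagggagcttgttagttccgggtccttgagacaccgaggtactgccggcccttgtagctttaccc

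Mrps18a (chr17:46110754-46111003, plus strand): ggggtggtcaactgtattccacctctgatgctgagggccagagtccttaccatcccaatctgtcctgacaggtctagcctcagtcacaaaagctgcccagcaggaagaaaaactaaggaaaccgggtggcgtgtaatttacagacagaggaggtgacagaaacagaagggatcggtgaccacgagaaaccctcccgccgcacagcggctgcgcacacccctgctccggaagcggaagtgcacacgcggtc

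Promoter windows of 300 bases, 250 before and 50 after the start, were found for 68 of the 77 genes, with 71 windows in all. The ETS motif CCGGAAGT, on either strand, lay in 15.5% of the members' windows and in 3.89% of all 32851 windows. The NRF1 motif, searched as a palindrome, lay in 4.23% against 0.971%. The YY1 motif, on either strand, lay in 7.04% against 0.852%. Of the sequences printed above, that of Mrpl18 holds the ETS motif, beginning 240 bases before the start. The 10 tested members with the ETS motif had a median log2 change of -0.23 (PB-NICD minus control), and the 56 with a window but without it had -0.18. For NRF1 the medians were 0.03 for 3 members with the motif and -0.19 for 63 without, and for YY1 0.06 for 5 members and -0.21 for 61. Mrps18a is among the 5 with a YY1 match, which lies outside the stretch printed. These matches describe letters in a window and do not show binding.

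On each array the value of a gene is the log2 ratio of prostate over reference RNA, and a change is the mean over PB-NICD arrays less that over control arrays. The targeted gene was checked first. Notch1 was at 0.05 to 0.84 on the control arrays and at 2.63 and 2.74 on PB-NICD 2 and PB-NICD 3. Its spot on PB-NICD 1 was an outlier and left out, and that spot read 2.48. Its direct target Heyl was at -0.23 to -0.03 in controls and 2.60 to 2.79 in PB-NICD. The prostate marker Pbsn, which encodes probasin, stood far above the reference on every array, at 9.81 to 11.7. The secreted seminal vesicle gene Svs4 varied between arrays, from -0.28 on control 4 to 9.39 on control 2. The sample channel was well above background for 44.8% to 66.8% of probes, and its median signal was 69 to 87.5 on control arrays, below every PB-NICD array, the lowest of which read 88. What that difference in signal contributes to the results was not tested.

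Of the 75 members, 8 fell in PB-NICD prostate and 0 rose at an adjusted p under 0.05 (limma, Benjamini-Hochberg over all items). All 8 encode large-subunit proteins: Mrpl53, Mrpl20, Mrpl33, Mrpl18, Mrpl34, Mrpl54, Mrpl30 and Mrpl42. Over all items 5.05% fell and 3.58% rose, so the members' share that fell, 8 of 75, was above this background and the share that rose was below it. The background is higher among items more like the members. Among named genes 6.11% fell and 4.03% rose. Among items well above background on all arrays 7.59% fell and 3.81% rose, and there 8 of 71 members fell. At an unadjusted p under 0.05, 25 members were lower and 1, Mrps18a, was higher, beside 12.7% and 8.96% of all items. The median change of the members was -0.16, beside -0.02 for all items. The change was negative for 55 members, 73.3%, beside 54.3% of items. The count depends on the processing. It was 3 (beside 2.27% of items) when the background model was estimated from all spots instead of those with a sound local background, the latter being a choice made after results under the former were seen. It was 3 (3.06%) without PB-NICD 1 and 4 (2.87%) without PB-NICD 2. It was 15 (6.6%) after scaling between arrays and 24 (11.4%) in the authors' value table. When each array was centred on its median in place of loess, the median of all items moved to 0.27 and that of the members to 0.30. Then 0 members fell and 16 rose, in a comparison where 25.3% of items rose and 1.66% fell, so directions here are relative to the loess baseline.

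**Figure D1:**
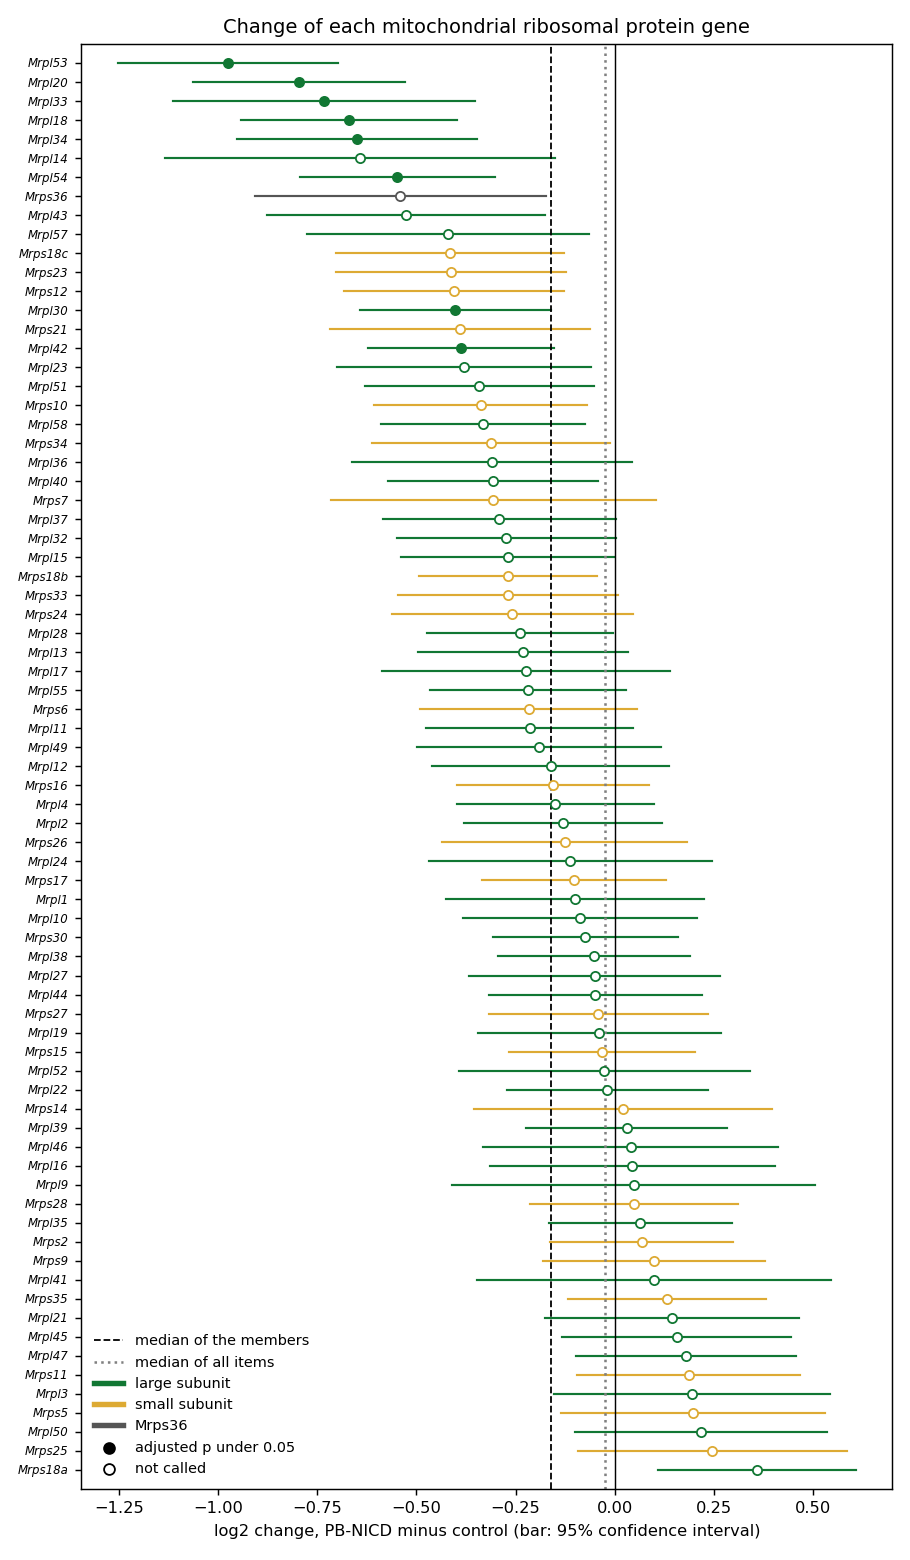
Fitted log2 change, PB-NICD minus control, of the 75 tested members (points) with 95% confidence intervals (bars), ordered by size and coloured by subunit. The 8 filled points, all of the large subunit, passed the adjusted threshold, and the dashed line at -0.16 is the members' median beside the dotted line at -0.02 for all items.

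Mrpl53, a mitochondria-specific protein of the large subunit, had the lowest change. Its log2 ratio was 2.23, 2.18, 2.07 and 2.07 on control arrays 1 to 4 and 1.07, 1.00 and 1.41 on PB-NICD arrays 1 to 3. Every PB-NICD array lay below every control array, and the nearest pair was PB-NICD 3 and control 4. The fitted change was -0.97 ± 0.12 (SE, 4 control and 3 PB-NICD arrays), a level of 0.509 times control, with an adjusted p of 0.00103 in limma. The change was -1.13 within slide 1, where a single PB-NICD array stands against 2 controls, and -0.86 within slide 2, with 2 arrays of each group.

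Mrpl20, whose bacterial counterpart binds the large ribosomal RNA early in assembly, came next. It read 1.68, 1.45, 1.54 and 1.27 on the control arrays and 0.70, 0.61 and 0.76 on the PB-NICD arrays. The groups were far apart relative to their spread, with SDs of 0.17 and 0.07. The change was -0.80 ± 0.12 (SE, 4 and 3 arrays), or 0.576 times control, with a limma adjusted p of 0.00257. It was -0.87 on slide 1, with its 1 PB-NICD array, and -0.72 on slide 2.

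Mrpl18, which has a bacterial counterpart that contacts the small RNA of the large subunit, read 1.09, 1.00, 1.29 and 0.97 in controls and 0.33, 0.33 and 0.59 in PB-NICD. All PB-NICD arrays lay below all controls. The change was -0.67 ± 0.12 (SE, 4 and 3 arrays; limma adjusted p of 0.00734). The gene has 3 probes, and the brightest was used. The other 2 probes gave -0.30 and -0.24, with unadjusted limma p of 0.0809 and 0.172. Mrpl18 did not pass when its probes were averaged, so both the size of this change and the call rest on the probe.

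Mrpl34, a small protein with a bacterial counterpart, read 1.34, 1.18, 1.62 and 1.33 in controls and 0.55, 0.70 and 0.91 in PB-NICD. Again no array of one group reached the other. The change was -0.65 ± 0.14 (SE, 4 and 3 arrays; limma adjusted p of 0.0149). Mrpl54, which is specific to mitochondria, read 1.41, 1.17, 1.24 and 1.17 in controls and 0.59, 0.71 and 0.80 in PB-NICD. The groups were separate, and the change was -0.55 ± 0.11 (SE, 4 and 3 arrays; limma adjusted p of 0.0122). Mrpl34 passed in 15 of 23 alternatives, with adjusted p from 0.000684 to 0.806 in limma, and Mrpl54 in 17, with 0.00198 to 0.589. Neither passed with the background model estimated from all spots (0.0712 and 0.0702) or without PB-NICD 1 (0.0637 and 0.0571), and Mrpl34 did not without PB-NICD 2 (0.058).

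Mrpl33, another protein with a bacterial counterpart, had fewer values because outlier spots were left out. It read 0.99 and 0.73 on controls 1 and 4 and 0.16 and 0.10 on PB-NICD 1 and 2. The change was -0.73 ± 0.16 (SE, 2 and 2 arrays; limma adjusted p of 0.0356). With the outlier spots kept it was -0.53, with a limma adjusted p of 0.132, so the call rests on leaving them out; over all alternatives its adjusted p was 0.00822 to 0.921.

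Mrpl30 and Mrpl42 lay just inside the threshold. Mrpl30, with a bacterial counterpart, read 1.46, 1.42, 1.56 and 1.58 in controls and 1.06, 1.00 and 1.25 in PB-NICD. Its groups did not overlap, and its change was -0.40 ± 0.11 (SE, 4 and 3 arrays; limma adjusted p of 0.0472). Mrpl42, specific to mitochondria, read 0.99, 1.00, 0.78 and 0.93 in controls and 0.46, 0.56 and 0.60 in PB-NICD. The groups were again separate, with a change of -0.39 ± 0.11 (SE, 4 and 3 arrays; limma adjusted p of 0.0493). Its other probe gave -0.54, and Mrpl42 did not pass when the probes were averaged. Each of these 2 genes passed in 8 of 23 alternatives.

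**Figure D2:**
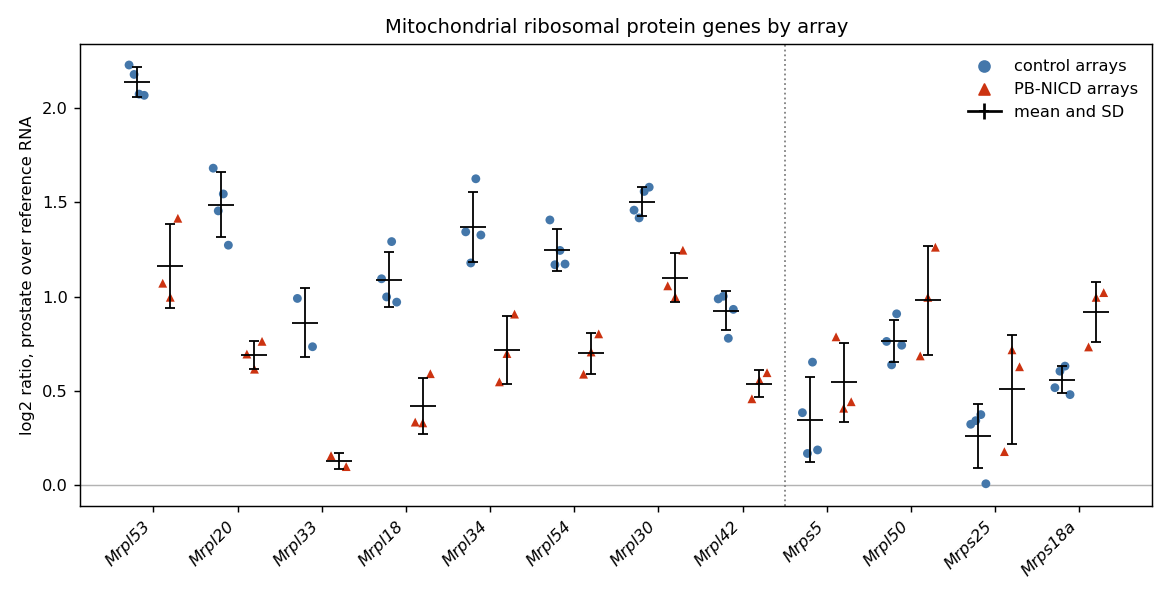
Log2 ratio of prostate over reference RNA on each array for the 8 members that fell (left of the dotted line) and the 4 members with the highest changes (right); circles are control arrays, triangles PB-NICD arrays, and bars give the mean and SD. No PB-NICD triangle reaches the control circles for the 8 members on the left, whereas Mrps18a, at 0.73 to 1.02 against 0.48 to 0.63, is the only one on the right whose groups do not overlap.

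Members just outside the threshold were also low. Mrps36, which is no ribosomal subunit, read 0.62 to 1.21 in controls and 0.23 to 0.60 in PB-NICD, with a change of -0.54 ± 0.17 (SE, 4 and 3 arrays; limma adjusted p of 0.0767). Its dimmer probe gave 0.14, the opposite sign. Mrpl43, mitochondria-specific, read 1.60, 1.19, 1.72 and 1.10 in controls and 0.83, 0.89 and 0.91 in PB-NICD. Its groups did not overlap, and its change was -0.53 ± 0.16 (SE, 4 and 3 arrays; limma adjusted p of 0.0706). The dimmer probe of Mrpl43 gave -0.19, with overlapping groups and an unadjusted limma p of 0.272. Mrpl14, a bacterial-type protein at the interface between the subunits, had a change of -0.64 ± 0.22 (SE, 4 and 3 arrays; limma adjusted p of 0.114). Its low value on control 3, -0.31, lay inside the PB-NICD range of -0.76 to -0.10.

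At the upper end, Mrps18a read 0.52, 0.60, 0.63 and 0.48 in controls and 0.73, 1.00 and 1.02 in PB-NICD. Its PB-NICD arrays lay above all controls, but the change of 0.36 ± 0.11 (SE, 4 and 3 arrays) had a limma adjusted p of 0.0834 and did not pass. It passed in 4 of 23 alternatives, with an adjusted p between 0.00733 and 0.734. The next members were Mrps25 (0.25), Mrpl50 (0.22), Mrps5 (0.20), Mrpl3 (0.19), Mrpl47 (0.18), Mrpl45 (0.16) and Mrpl21 (0.15), given as log2 changes among members with values on all 7 arrays. None of these 7 passed, and their limma adjusted p was 0.404 or higher. For Mrpl3, a large-subunit protein with a bacterial counterpart, the probe used gave 0.19 and the other 2 gave 0.25 and 0.79, with unadjusted limma p of 0.075 and 0.000265. The other probe of Mrpl50 gave 0.71, with an unadjusted limma p of 0.00782. Over the family, 22 genes had several tested probes, and in 9 the probes differed in the sign of the change.

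Of the 75 members, 28 had every measured PB-NICD array below every measured control array, which is 37.3% beside 15.1% of all items. In the other direction 1 member, Mrps18a, lay above all controls, which is 1.33% beside 10.5%. Without PB-NICD 1 the lower count was 29, where 22% of items did so. After median centring it was 1, beside 3.89% of items. The median ratio of the members was 0.74, 0.63, 0.73 and 0.57 on control arrays 1 to 4 and 0.46, 0.56 and 0.57 on PB-NICD arrays 1 to 3. All PB-NICD medians lay below all control medians, though PB-NICD 3 and control 4 were close. Relative to the median of all items on the same array the groups met, at 0.498 on PB-NICD 3 and 0.494 on control 4. These medians run over the members measured on each array, from 69 on control 3 to 75. Over the 67 members with values on all 7 arrays the medians were 0.76, 0.70, 0.73 and 0.65 on the control arrays. On the PB-NICD arrays they were 0.54, 0.58 and 0.60. The medians of all items were 0.05 to 0.15 on the control arrays and 0.06 to 0.11 on the PB-NICD arrays.

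**Figure D3:**
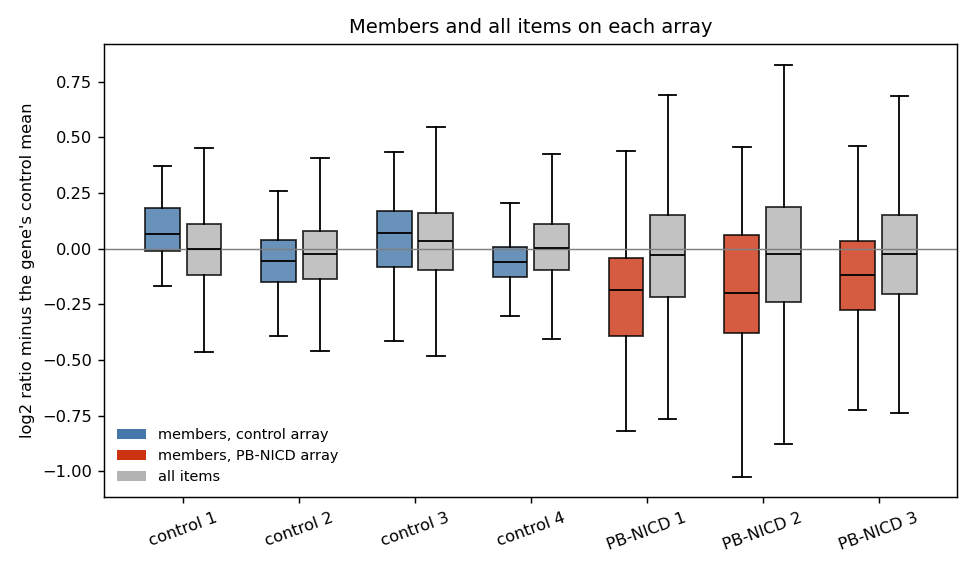
Distance of each gene's log2 ratio from its control mean on each array, for the members (blue on control, red on PB-NICD arrays) and for all items (grey); boxes span the quartiles with the median, whiskers reach 1.5 box lengths at most and points beyond are not drawn. The members' median is -0.19, -0.20 and -0.12 on PB-NICD arrays 1 to 3, and that of all items is -0.03, -0.02 and -0.02.

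By subunit, 8 of 50 large-subunit members fell, with a median change of -0.18, and 0 of 24 small-subunit members, with a median of -0.14, where 5.05% of all items fell. At an unadjusted p under 0.05 in limma, 17 of the large and 7 of the small subunit were lower, beside 12.7% of items. The split depends on the setting. Small-subunit genes that fell numbered 2 with the slide as a fixed block (Mrps12 and Mrps23), where 7.21% of items fell. They numbered 2 with processed signals (3.77% of items), 3 after scaling between arrays (6.6%) and 6 in the authors' value table (11.4%). Whether the subunits differ was not tested. Among large-subunit members, 5 of 30 with a bacterial counterpart fell (median change -0.19) and 3 of 20 mitochondria-specific ones (-0.13). Small-subunit members with the lowest changes were Mrps18c (-0.42), Mrps23 (-0.41) and Mrps12 (-0.40), the last a protein of the decoding centre. Their limma adjusted p was 0.0805, 0.0859 and 0.0787, and in each the groups did not overlap. With the slide as a fixed block, Mrps23 and Mrps12 passed, with limma adjusted p of 0.0462 and 0.0265. The dimmer probe of Mrps23 gave 0.25, the opposite sign, with overlapping groups. That of Mrps18c gave -0.30, also with overlapping groups.

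Members with a higher ratio in control prostate had lower changes. The 25 members with a control log2 ratio of 1 or more had a median change of -0.31, beside -0.24 for the 2345 items in that range. The 19 members between 0.5 and 1 had -0.21, beside -0.06 for 2115 items. The 31 members under 0.5 had -0.04, beside -0.00 for 12479 items. Items of the highest range were thus lower as well. The control mean sets the range and is also subtracted in the change, so range and change are not independent. When the control ratio was taken from 1 slide and the change from the other, Pearson's r over the 75 members was -0.48 and -0.44, a description across genes that share the same arrays. Over all items the same relations gave -0.16 and -0.27. Spearman's correlation was -0.52 and -0.47 over the members, and -0.02 and -0.17 over all items. The part that the ratio range plays in the members' lower median was not tested.

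**Figure D4:**
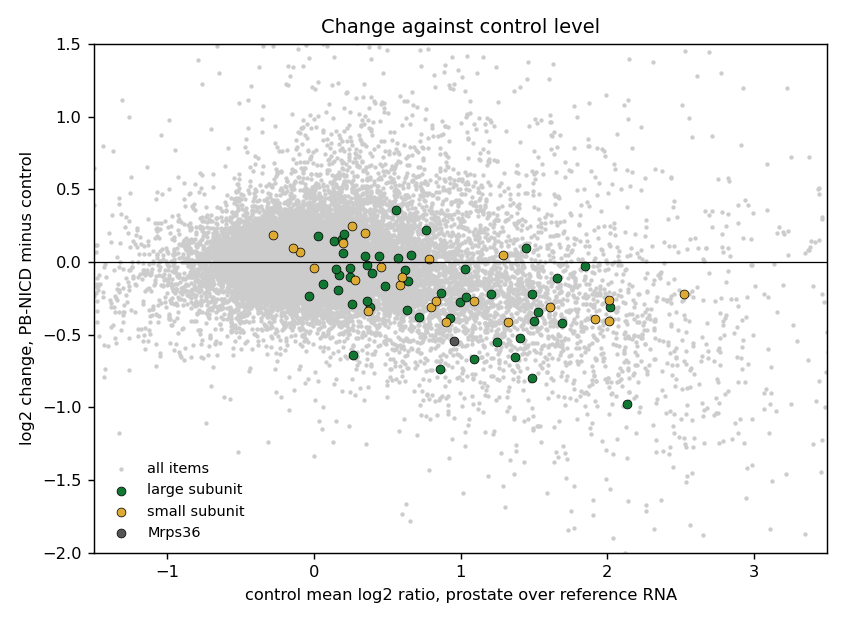
Log2 change (PB-NICD minus control) against the control mean log2 ratio for members of the large subunit, the small subunit and Mrps36, over all items in grey; items outside the axes are not drawn. Members at a control ratio of 1 or more lie mostly below 0, with a median of -0.31, and so do the items there, with -0.24.

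Genes that serve the mitochondrial ribosome without bearing its name were read from lists, most of which held no gene past the threshold. Counts in these lists are read against the 5.05% of all items that fell and the 3.58% that rose. The lists are short, so a few calls do not set a list apart from these shares. Of 5 subunits with other symbols (Dap3, Ptcd3, Chchd1, Aurkaip1 and Gadd45gip1), 0 passed, with a median of -0.25, and the farthest was Gadd45gip1 at -0.38 (limma adjusted p of 0.140). Of 21 assembly and RNA-modification factors, 2 fell and 0 rose, with a median of 0.05. Mrm3, which methylates the large-subunit RNA, read 0.96, 1.19 and 1.94 on controls 1, 2 and 4 and -0.11, -0.18 and -0.01 in PB-NICD, and it fell by 1.46 ± 0.22 (SE, 3 and 3 arrays; limma adjusted p of 0.00393). Mpv17l2, an inner-membrane protein linked to large-subunit assembly, read 2.23, 1.94, 2.41 and 1.98 in controls and 1.38, 1.38 and 1.43 in PB-NICD. It fell by 0.74 ± 0.13 (SE, 4 and 3 arrays; limma adjusted p of 0.00617). Both were well separated between groups.

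Of 12 translation factors 0 passed, with a median of 0.06, and the farthest was the ribosome recycling factor Mrrf at 0.42 (limma adjusted p of 0.0629). Of 16 mitochondrial aminoacyl-tRNA synthetases and related enzymes, 1 fell and 0 rose, with a median of 0.08. That one was the leucine enzyme Lars2, which fell by 0.74 ± 0.19 (SE, 4 and 3 arrays; limma adjusted p of 0.0353). Of 8 genes of mitochondrial DNA upkeep and transcription 0 passed (median 0.14, farthest Polg2 at 0.27), and of 9 nuclear regulators such as Nrf1, Gabpa and Ppargc1a 0 passed (median -0.01, farthest Gabpa at 0.25). At an unadjusted p under 0.05 in limma, 2 subunits of other name, 4 assembly factors and 1 synthetase were lower, and 1, 1 and 1 of these lists were higher. The translation factors had 0 lower and 3 higher, and the remaining 2 lists had 0 in either direction. Of all items 12.7% were lower and 8.96% higher at that threshold.

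The members were set beside the 2 gene families most like them. Of 70 cytosolic ribosomal protein genes 10 fell and 1 rose, with a median change of -0.24. Of 35 complex I genes (symbols beginning Nduf, a rule that does not exclude assembly factors) 7 fell and 0 rose, with a median of -0.23. Both families are read against the 5.05% of items that fell and the 3.58% that rose. Both medians lay below the members' -0.16. All measured PB-NICD arrays lay below all measured controls in 40% of the cytosolic and 37.1% of the complex I genes. That share was 37.3% of the members and 15.1% of all items. No difference between the families was tested.

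In bulk tissue, fewer cells of a type and less RNA per cell cannot be told apart. Of 4 basal cell markers 2 fell, Krt5 and Krt15, and the median ratio of the list was 0.59 to 1.49 on control arrays and 0.12 to 0.25 on PB-NICD arrays. Of 5 smooth muscle markers 0 passed, but all 5 had negative changes, with a median of -0.52, and 4 had an unadjusted limma p under 0.05. The groups did not overlap in 3 of them. PB-NICD 1, PB-NICD 2 and PB-NICD 3 lay below all controls in 2 of 4, 4 of 4 and 5 of 5 markers measured. For all items these shares were 29.7%, 32.0% and 29.5%. Of all items 5.05% fell, 12.7% were lower at that unadjusted p, and 15.1% had all PB-NICD values below all controls. Of 8 luminal markers 1 fell (Sbp, at 9.50 to 11.5 in controls and 2.38 to 9.44 in PB-NICD). None of 1 endothelial, 3 fibroblast, 5 immune and 2 seminal vesicle markers passed. Of 3 urothelial markers Upk3a rose, by 5.11 on 2 control and 2 PB-NICD arrays with values, where 3.58% of all items rose. Upk1b (-0.56) and Upk2 (0.005) did not pass. The part of all these markers in the members' changes was not tested.

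**Figure D5:**
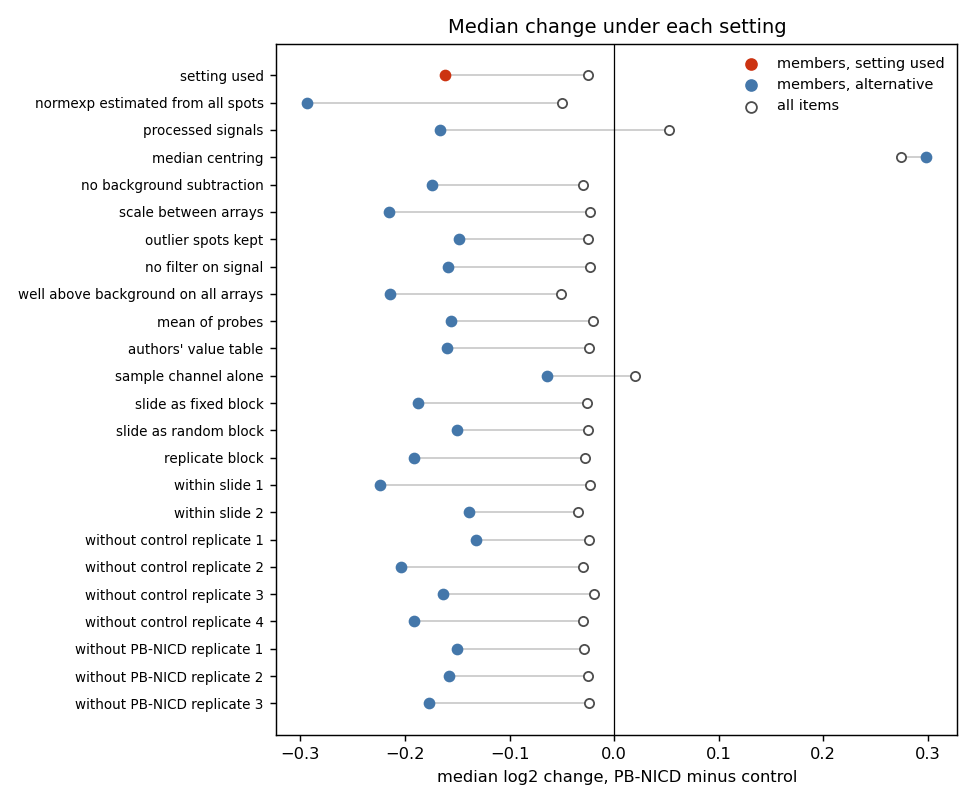
Median log2 change (PB-NICD minus control) of the members (filled) and of all items (open) under the setting used and 23 alternatives, one per line. The members' median lies below that of all items in each line but median centring, where it is 0.30 beside 0.27.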

How the data were processed

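Per the file headers, Agilent Feature Extraction 10.7.3.1 measured the spots. Deposited intensity columns used here are median signals of spot and local background, not normalized, and processed signals with background subtraction and dye normalization already applied. The deposited log10 ratio of red over green set the direction, and deposited flags of 0 or 1 mark outlier and well-measured spots. A value table deposited by the authors is on a log2 scale and its normalization is not stated in the labels; its column medians were -0.02 to -0.01. Prostate RNA is in the red channel on every array, with no dye swap.

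Background was corrected by normexp (offset 50) and ratios by loess within arrays, in limma 3.58.1 under R 4.3.3. With parameters estimated from all spots, as first run, the estimate failed on PB-NICD 1, where 6 sample-channel spots lay more than 30 units under their local background: the background SD came out at 344 and the SD of log2 ratios over items at 0.580, against 0.873 to 1.02 on the other arrays. The parameters were therefore estimated from spots whose local background was not marked as an outlier, which gave an SD of 0.907 for that array. This choice was made after results under the first estimate had been seen, and it raised the members that fell from 3 to 8 while the members' median moved from -0.29 to -0.16; the first estimate is kept as an alternative.

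Outlier spots were left out. A probe was tested if well above background in the sample channel on at least 3 arrays with at least 2 values in each group; the brightest probe stood for a gene. Of 41174 probes, 24375 had a symbol through RefSeq accessions. Mrps22 lay near background on every array, Mrps31 had too few values, and Mrpl48 had no matched probe. No member passed through 1 group alone, and 67 had values on all 7 arrays. Groups were compared by limma, two-sided, with Benjamini-Hochberg adjustment over all items; the script was tested on simulated data. The number of arrays limits the precision. Slide 1 held controls 1 and 2 and PB-NICD 1, and slide 2 the others. The alternatives were the other signals, normalizations, filters, probe rules, slide and replicate blocks, and leaving out each array.

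The members and gene lists were chosen with earlier results of these data known. Named are members past the threshold, the 8 lowest and 8 highest with values on all 7 arrays, and, of the other mitochondrial lists, genes past the threshold and the one of largest change. Small-subunit examples and marker genes were named after their values were seen.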

Additional observations from a re-analysis of the deposited data

Results flagged for a closer look

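Within the 4 control arrays, Mrps25, a small-subunit protein specific to mitochondria, had 1 array far from the rest. Control 4 read 0.01 while the other 3 read 0.32 to 0.37, and the gap to the nearest value was 0.86 of the group's range. Chance alone marks about 1 in 20 groups in this way, and 19 were checked, so 1 is the number chance would give. The gene did not pass the test between groups, and its change was 0.25.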

How the results depend on the processing

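The count of members that fell, 8 in the setting used, was 3 with the background model estimated from all spots (chosen after seeing the data), 0 with median centring, 15 with scaling between arrays, 5 with no filter on signal (2.25% of items), 24 in the authors' value table and 3 from the sample channel alone (3.18% of items, close to 3 of 75). It was 3 within slide 1 (3.22%), where the single PB-NICD array is assumed to vary like the controls, and 3 within slide 2 (3.35%). Averaging the probes of a gene gave 6 fallen members (4.46% of items), without Mrpl18 and Mrpl42. The count that rose, 0, was 1 with processed signals (2.94% of items) and 16 with median centring (25.3%). It was 1 in the authors' value table (7.43%) and 1 from the sample channel alone (3.5%). The members' median of -0.16 was -0.29 from all spots, 0.30 with median centring and -0.064 from the sample channel alone. Leaving out 1 array at a time gave 3 to 8 fallen members, where 2.87% to 4.84% of items fell, and medians of -0.20 to -0.13. It gave 0 risen members, where 2.14% to 3.87% of items rose. The lowest counts that fell were 3 without PB-NICD 1 and 4 without PB-NICD 2. The count of members below all controls, 28, was 1 with median centring.

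Median centring also turned the sign of Mrpl33 (0.032), Mrpl54 (0.14), Mrpl30 (0.25), Mrpl42 (0.19), Mrpl14 (0.062), Mrpl43 (0.049) and Mrpl47 (-0.11). Within slide 1, that of Mrpl21 (-0.12), Mrpl50 (-0.015) and Mrps25 (-0.15) turned. The cause was not tested. Over all items, median centring gave 282 lower and 4283 higher calls against 856 and 607, and scaling between arrays 1118 and 577. Of 433 values for the 19 named members, 423 kept their direction. Of 182 values for members that fell, 119 stayed past the threshold; Mrpl53 did so in 22 of 23 alternatives and Mrpl20 in 21.

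With the replicate number as a block, 6 members fell (3.62% of items), 0 rose and the median was -0.19. Deviations of same-numbered arrays correlated at 0.29, -0.20 and 0.09, so the numbers were not taken to pair the samples. The sign followed the slide. Between control and PB-NICD arrays it was 0.09 to 0.33 on the same slide and -0.34 to -0.14 on different slides. The setting used does not model the slide, and the groups are split unevenly over the slides. With the slide as a fixed block 11 fell (7.21% of items), and as a random block 9 (5.94%). No spot was saturated, and signal near background limits members such as Mrps22.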
